A study of Mus musculus with 8 samples.

Results

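The genes described here are the translation initiation factors, taken as the protein-coding genes whose GENCODE M21 symbols begin with Eif followed by a digit from 1 to 6, with one gene of an eIF4E-binding protein left out. The rule found 54 genes among the 50686 gene IDs of the count table. It used no measured value, but the set was chosen with earlier results of these data known. Of the 54 genes, 52 had enough counts to be tested, among 16066 genes tested in all. The others were Eif4e1b, an oocyte form of the cap-binding protein, which had 0 counts in every library, and Eif4ebp3, which had 5 counts in Large 2, 52 in All 2 and 0 elsewhere.

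RNA was sequenced from hematopoietic stem cells (HSCs), the marrow cells that renew themselves and give rise to all blood lineages, sorted from C57BL/6J mice by size. The 4 groups were Small and Large (the 10% of HSCs with the lowest and the highest forward scatter), Medium (cells within 10% of the mean size) and All, which was not divided by size. Every group has 2 libraries, numbered 1 and 2 in the titles, each made from 10000 cells in G0/1 phase from lineage-depleted marrow stained with antibodies to CD117, Sca-1, CD48 and CD150. No group carries a treatment or an altered allele. The labels give neither the age of the mice nor whether the libraries of a group came from separate animals, and the p-values below therefore rest on a spread between libraries that may be technical. The arms with PD, rapamycin or vehicle in the design text were not analysed here.

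Translation initiation brings a ribosome to the start codon of an mRNA. The factor eIF2 carries the initiator methionyl-tRNA to the small ribosomal subunit, eIF3 and the scanning factors eIF1 and eIF1A hold that subunit ready, and the cap-binding complex of eIF4E, eIF4G and the helicase eIF4A recruits the mRNA. At the start codon eIF5 triggers GTP hydrolysis by eIF2, eIF5B joins the large subunit, and eIF2B reloads eIF2 with GTP. Stress kinases phosphorylate the alpha subunit of eIF2, which blocks eIF2B. Adult HSCs are known for a low rate of protein synthesis.

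The libraries held 13698362 (Small 2) to 16838448 (All 2) counts, and 3 counts, the floor for a gene at 0, correspond to 0.178 to 0.219 CPM (counts scaled to a fixed library total) across the libraries, a limit that covers counting error only. All 6 HSC markers used (Mecom, Procr, Hlf, Meis1, Slamf1 and Gata2) were detected, with a summed level of 266.6 CPM in Large 1 to 1363.4 in All 2. All 10 granulocyte and monocyte markers were detected too, at 43777.8 and 12372.7 CPM in the Small gate, 24094.3 and 8242.9 in the Medium gate, 44885.8 and 22742.9 in the Large gate, and 55081.1 and 3417.7 in All. The number 1 library was the higher one in every group. Erythroid, B cell, T and NK, mast, basophil and eosinophil, megakaryocyte, macrophage, and endothelial and stromal lists also had every gene detected, and their sums stayed at or below 2081.5 CPM. In bulk RNA, fewer cells of a type and less RNA per cell cannot be told apart. TPM (transcript shares, which also correct for length) are shares of a library. The CPM of genes and lists are shares after TMM scaling, which adjusts each library total, and the floor above was computed without it. Higher and lower below thus mean relative abundance, not amounts per cell. The amount of RNA per cell was not measured.

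In CPM, most initiation factor genes had their highest level in the Large gate, by small margins. The fitted log2 difference between Large and Small was positive for 43 of 52 genes, with a median of 0.22, against a median of 0.00 over all tested genes. Against Medium it was positive for 40 of 52, with a median of 0.19, against -0.01 over all genes. Between Medium and Small the initiation factors were divided, with 27 of 52 positive and a median of 0.01, against -0.01. On this count scale the medians thus placed Large above both other gates, with little between Medium and Small. On the deposited log2(TPM + 1) values the medians of Large against Small and Large against Medium were smaller. They were 0.05 and 0.07, beside -0.11 and -0.09 over all genes.

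No single gene passed the test. With edgeR's quasi-likelihood test and Benjamini-Hochberg adjustment over all genes, 0 of 52 initiation factor genes had an adjusted p under 0.05 in Large against Small, Large against Medium or Medium against Small, and 0% of all genes did in each. The smallest adjusted p of an initiation factor was 0.975 for Large against Small by edgeR. At an unadjusted p under 0.05 by edgeR, 3 initiation factors were higher in Large than in Small (1.77% of all genes were) and 0 were lower (1.38% of all genes). For Large against Medium the counts were 0 higher (0.878% of all genes) and 0 lower (0.996%). For Medium against Small they were 2 higher (2.81% of all genes) and 0 lower (1.52%). DESeq2, limma-voom and limma-trend on log2(TPM + 1) also called 0 initiation factors in the 3 comparisons, while DESeq2 called 10, 2 and 43 genes of the whole table. With 2 libraries a group, an exact permutation test of one gene cannot give a two-sided p under 0.333.

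The order of the libraries shows the same lean without a fit. Both Large libraries lay above both Small libraries for 18 of 52 initiation factors (34.6%, against 17.7% of all tested genes), and both lay below for 3 (5.77%, against 14.7%), which were Eif4e3, Eif4g1 and Eif4g3. Both Large libraries lay above both Medium libraries for 22 (42.3%, against 18.3%) and below for 3 (5.77%, against 17.2%), which were Eif2ak2, Eif4a2 and Eif4e3. Both Medium libraries lay above both Small libraries for 7 (13.5%, against 16.6%) and below for 8 (15.4%, against 14.3%), shares near those of all genes. Leaving out a library of a compared gate leaves 1 library on that side, which raises the share of all genes as well as that of the 53 initiation factors then tested. The count for Large against Small became 36 without Small 1 (67.9%, against 39.2% of all genes) and 37 without Large 2 (69.8%, against 36.7%). It became 23 without Small 2 (43.4%, against 31.9%) and 22 without Large 1 (41.5%, against 28.3%). The count for Large against Medium became 35 without Medium 1 (66.0%, against 36.9%) and 40 without Large 2 (75.5%, against 36.0%). It became 22 without Medium 2 (41.5%, against 27.9%) and 26 without Large 1 (49.1%, against 29.4%). That for Medium against Small became 23 without Small 1 (43.4%, against 34.5%), 12 without Small 2 (22.6%, against 33.9%), 11 without Medium 1 (20.8%, against 32.1%) and 20 without Medium 2 (37.7%, against 32.8%). The median for Large against Small was 0.37 without Small 1 (0.04 over all genes), 0.14 without Small 2 (0.07 over all genes) and 0.11 without Large 1 (0.00 over all genes), so that its excess over all genes fell to 0.07 without Small 2. For Large against Medium the median was 0.13 without Medium 2 (0.01 over all genes), 0.09 without Large 1 (-0.01) and 0.37 without Large 2 (-0.07). For Medium against Small the median of 0.01 became 0.07 without Small 1 (0.06 over all genes), -0.08 without Small 2 (0.04), -0.05 without Medium 1 (-0.01) and 0.08 without Medium 2 (0.00).

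Libraries of the same number resembled each other, so each comparison was also made within a number. Large exceeded Small within both numbers for 35 of 52 initiation factors (67.3%, against 32.9% of all genes) and was lower within both for 5 (9.62%, against 30.9%). The median difference between Large and Small was 0.27 within number 1 and 0.24 within number 2. Large exceeded Medium within both numbers for 34 (65.4%, against 32.9%) and was lower for 8 (15.4%, against 33.0%), with medians of 0.31 and 0.13. Medium exceeded Small within both for 17 (32.7%, against 30.1%) and was lower for 15 (28.8%, against 29.3%). Large was the highest of the 3 gates in both numbers for 28 of 52 initiation factors (53.8%), against 19.3% of all genes. A steady order of Small below Medium below Large in both numbers held for 8 (15.4%, against 5.75% of genes), and the opposite order for 0 (5.37% of genes). Medium was the highest gate in both numbers for 5 (9.62%, against 16.3% of genes), namely Eif1b, Eif2ak2, Eif3a, Eif5a2 and Eif5b, and Large was the lowest for 2 (3.85%, against 16.8%), Eif1 and Eif4e3; Eif1b is named here after its values were seen. Summed granulocyte and monocyte markers were also higher in Large than in Small and in Medium within both numbers, and HSC markers were lower (266.6 CPM in Large 1 against 551.3 in Small 1 and 659.8 in Medium 1, and 620.4 in Large 2 against 1127.7 in Small 2 and 929.7 in Medium 2). Erythroid sums were higher in Large as well (2081.5 CPM in Large 1 against 1878.3 in Small 1 and 1340.3 in Medium 1, and 482.9 in Large 2 against 243.6 in Small 2 and 337.0 in Medium 2). So were T and NK sums (975.2 CPM in Large 1 against 644.8 and 477.9, and 355.0 in Large 2 against 175.4 and 194.2, in the same order). Other lists did not share this direction. For megakaryocyte markers Large 1 had 234.9 CPM, below 402.5 in Small 1 and 444.4 in Medium 1. Large 2 had 219.7, above 124.5 in Small 2 and 148.1 in Medium 2. The B cell list and the mast, basophil and eosinophil list also switched between numbers. In both numbers the macrophage sum of Large lay between those of Medium and Small. Endothelial and stromal sums in Large exceeded Small in number 2 only, and Medium in neither. The part of these markers in the result was not tested.

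**Figure D1:**
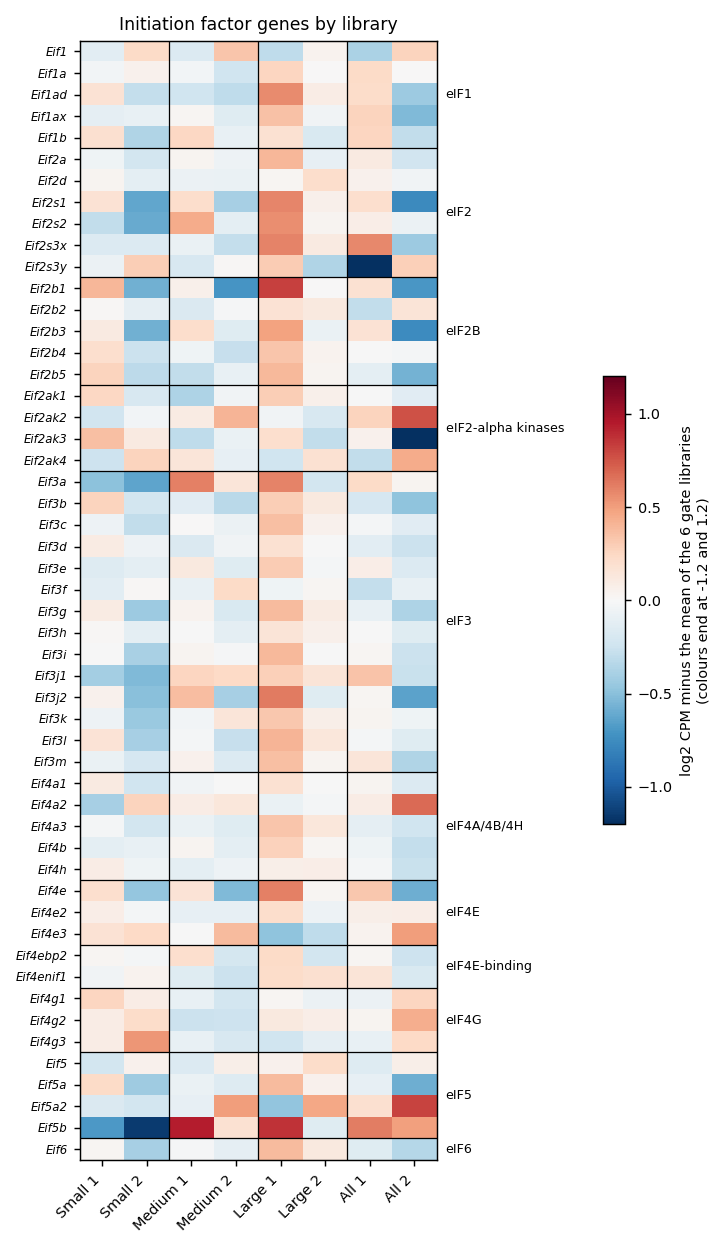
Each row is one of the 52 tested initiation factor genes, grouped by factor, and each column a library. Colour gives log2 CPM minus the gene's mean over the 6 gate libraries, and the Large 1 column is red for most genes while Small 2 is blue for most.

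The scaling matters for the size of these differences. On the deposited log2(TPM + 1) values the median of all tested genes moved to -0.11 for Large against Small and -0.09 for Large against Medium. The initiation factor medians on that scale were 0.05 and 0.07, which is 0.17 and 0.16 above the median of all genes. Without that reference, 31 of 52 genes were positive for Large against Small and 35 of 52 for Large against Medium. Both Large libraries were above both Small ones for 11 genes on this scale (21.2%, against 12.1% of all genes) and below for 8 (15.4%, against 20.2%). They were above both Medium ones for 12 (23.1%, against 13.9%) and below for 5 (9.62%, against 21.2%). Both Medium libraries were above both Small ones for 8 (15.4%, against 14.4%) and below for 13 (25.0%, against 16.8%). Between Medium and Small the initiation factor median was -0.05 beside -0.04 over all genes. As a share of all TPM, the 54 genes together made up 1.18 and 1.15% in the Small gate, 1.12 and 1.14% in the Medium gate, 1.21 and 1.15% in the Large gate, and 1.04 and 1.16% in All. Large 1 had the highest share, Large 2 did not exceed Small 2, and the 2 gates overlapped.

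The scanning factors varied in direction: 4 of 5 were positive for Large against Small with a median of 0.13, and 2 of 5 with a median of -0.06 on the log2(TPM + 1) scale. Eif1, the gatekeeper of start codon choice, was the second most abundant member at a mean of 2321.8 TPM over the 6 gate libraries. Its levels were 888.6 and 1137.7 CPM in the Small gate, 868.8 and 1222.3 in the Medium gate, 786.4 and 1003.6 in the Large gate, and 748.8 and 1168.1 in All. Number 2 was the higher library in every group, and the groups overlapped. The fitted log2 difference between Large and Small was -0.18 ± 0.30 (SE, adjusted p = 0.975 by edgeR). It was the only initiation factor for which all 4 number 2 libraries exceeded all 4 number 1 libraries, an order that 11.6% of all genes had. The reverse order, with number 1 above number 2, was seen for 9 initiation factors (17.3%, against 9.19% of genes).

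Both genes for eIF1A, which works with eIF1 in scanning, had their highest gate level in Large 1. Eif1ax, on the X chromosome, had 148.5 and 150.3 CPM in the Small gate, 162.3 and 144.7 in the Medium gate, 203.5 and 154.9 in the Large gate, and 192.3 and 110.7 in All. Large lay above Small in both libraries, with a log2 difference of 0.26 ± 0.29 (SE), which is smaller than its error. Eif1a, the autosomal copy, had 253.8 and 213.1 CPM in Large against 207.5 and 179.5 in Medium, and it overlapped Small at 207.6 and 220.4. Eif1ad, which carries an eIF1A-like domain, had 147.4 and 105.5 CPM in Large, above 83.79 and 80.36 in Medium. Its log2 difference between Large and Medium was 0.62 ± 0.30 (SE, unadjusted p = 0.0801 and adjusted p = 0.989 by edgeR).

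Of the 6 genes grouped with eIF2, 5 had a positive difference between Large and Small (median 0.41) and 4 on the log2(TPM + 1) scale (median 0.19), with no gene passing the adjusted test by edgeR. Eif2s2 encodes the beta subunit, which contacts eIF5 and eIF2B (chr2:154871410-154892935, minus strand, GRCm38). It had 60.55 and 48.98 CPM in the Small gate, 101.2 and 68.6 in the Medium gate, 109.4 and 76.02 in the Large gate, and 78.57 and 71.03 in All. Both Small libraries were below the other 6. The log2 difference between Large and Small was 0.76 ± 0.29 (SE, unadjusted p = 0.0338 and adjusted p = 0.975 by edgeR), with 0.85 within number 1 and 0.63 within number 2, and 0.47 ± 0.34 without Large 1. Medium exceeded Small by 0.63 ± 0.29 (log2, SE; adjusted p = 1 by edgeR), and by 0.32 ± 0.33 without Medium 1. A processed pseudogene with 99.5% identity to its coding sequence, Gm9892, held 15.7% of the counts of the pair, and with its counts added the difference between Large and Small was 0.72 ± 0.29.

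Eif2s1, the alpha subunit whose phosphorylation the stress kinases control, followed the replicate number more than the gate. It had 370.4 and 213.7 CPM in the Small gate, 379.8 and 249.5 in the Medium gate, 494.5 and 342.9 in the Large gate, and 379.5 and 193.7 in All. Every number 1 library exceeded every number 2 library. Large was highest in each number, by 0.42 and 0.68 (log2) over Small, and the fitted difference was 0.52 ± 0.43 (SE, adjusted p = 0.975 by edgeR).

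The gamma subunit, which binds GTP and the initiator tRNA, is encoded on both sex chromosomes, by Eif2s3x (chrX:94188707-94212862, minus strand) and Eif2s3y (chrY:1010543-1028847, plus strand). The encoded proteins are each 472 residues long and 97.9% identical, and the coding sequences are 86.3% identical. Bases 301 to 420 of the coding sequences, with the 14 differing bases in capitals, show how the reads of these genes can be told apart.
Eif2s3x: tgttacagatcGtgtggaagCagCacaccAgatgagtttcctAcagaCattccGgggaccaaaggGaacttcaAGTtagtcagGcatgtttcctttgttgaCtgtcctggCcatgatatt
Eif2s3y: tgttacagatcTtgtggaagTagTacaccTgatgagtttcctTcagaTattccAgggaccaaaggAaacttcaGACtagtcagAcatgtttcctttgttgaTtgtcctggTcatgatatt

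Eif2s3x had 114.3 and 114.5 CPM in the Small gate, 121.1 and 104.9 in the Medium gate, 194.4 and 137.8 in the Large gate, and 191.7 and 94.9 in All. Both Large libraries lay above the 4 Small and Medium libraries, and the spread of All covered nearly the whole range. The log2 difference was 0.54 ± 0.35 against Small (SE, adjusted p = 0.975 by edgeR) and 0.56 ± 0.35 against Medium (SE, adjusted p = 0.989 by edgeR). Eif2s3y ran from 32.75 to 51.97 CPM in 7 libraries, with both extremes in Large, and stood at 1.88 CPM (27 counts) in All 1. In that library the other Y-linked genes were low as well, with Ddx3y at 2.02 CPM, Kdm5d at 0.348 and Uty at 0. Xist, the RNA of the inactive X chromosome of female cells, was at 14.3 CPM in Small 1 and 74.3 in Large 1, and at 119.5 to 260.7 in the other 6 libraries. Xist and Y-linked RNA were thus both present in the other 7 libraries, in differing proportions, and their part in the Eif2s3x values was not tested. The fitted error of Eif2s3y depended on All 1: its difference between Large and Small was -0.11 ± 1.11 (SE) with that library and -0.13 ± 0.31 without it. In TPM, which correct for length, Eif2s3y made up 43.8 and 47.2% of the gamma pair in the Small gate, 41.7 and 47.5% in the Medium gate, 35.4 and 30.6% in the Large gate, and 2.07 and 51.3% in All. The Large shares were below those of Small and Medium.

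**Figure D2:**
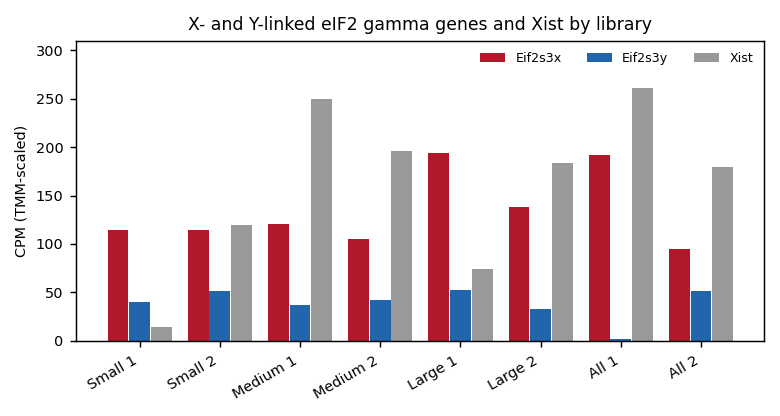
Bars give CPM of Eif2s3x, Eif2s3y and Xist in each library. Eif2s3x is highest in Large 1 and All 1, Eif2s3y is nearly lacking in All 1 at 1.88 CPM, and Xist is lowest in Small 1 at 14.3 CPM.

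Eif2d encodes a protein that delivers tRNA without being a subunit of eIF2. It had 75.27 and 85.62 CPM in Large against 70.54 and 69.83 in Medium and 75.72 and 68.41 in Small, and its log2 difference between Large and Small of 0.16 ± 0.19 (SE) was smaller than its error and changed sign on the log2(TPM + 1) scale.

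All 5 subunit genes of eIF2B, the exchange factor that recharges eIF2, had a positive difference between Large and Small (0.19 to 0.48, median 0.21). The same held between Large and Medium (0.19 to 0.75, median 0.35). Each was higher in Large within both numbers in both comparisons, as were 32.9% of all tested genes in either comparison. Between Medium and Small 4 of 5 were negative, with a median of -0.15. On the log2(TPM + 1) scale 4 of 5 stayed positive for Large against Small and 5 of 5 for Large against Medium. Eif2b1, the alpha subunit, had 110.3 and 56.13 CPM in the Small gate, 87.36 and 51.24 in the Medium gate, 148.4 and 84.11 in the Large gate, and 95.07 and 51.5 in All. The gap between numbers was as large as the gap between gates. Large exceeded Medium by 0.76 in number 1 and 0.71 in number 2, and the fitted value was 0.75 ± 0.50 (SE, adjusted p = 0.989 by edgeR).

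The beta subunit gene Eif2b2 varied least of the 5 between libraries of a gate. It had 71.31 and 65.76 CPM in the Small gate, 62.72 and 69.9 in the Medium gate, and 79.7 and 76.81 in the Large gate, so that Large was above both other gates in both libraries. The differences were small, at 0.19 ± 0.22 against Small and 0.24 ± 0.22 against Medium (log2, SE). In TPM Large 2 at 92.26 was just below Medium 2 at 92.54. Eif2b3, the gamma subunit, had 81.42 and 54.98 CPM in Large and 62.69 and 38.99 in Small. Eif2b4, the delta subunit, had 74.7 and 60.76 CPM in Large and 57.28 and 48.83 in Medium, but its difference from Small, 0.20, changed sign on the log2(TPM + 1) scale.

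The 4 kinases of eIF2-alpha showed no common direction, with medians of -0.02 for Large against Small, 0.06 for Large against Medium and -0.12 for Medium against Small. On the log2(TPM + 1) scale all 4 were negative for Large against Small, with a median of -0.17. Eif2ak1, the heme-regulated kinase HRI, was the most abundant of them at a mean of 44.57 TPM. It had 135.6 and 114.7 CPM in Large, above 85.42 and 107.0 in Medium and overlapping 130.6 and 96.54 in Small. In TPM Large overlapped Medium as well, at 43.50 and 44.39 against 30.54 and 57.30. Eif2ak2, the double-stranded RNA sensor PKR, was instead highest in Medium among the gates, at 29.64 and 36.7 CPM, against 23.6 and 27.06 in Small and 26.88 and 24.27 in Large. Unfractionated cells had 33.29 and 46.94 CPM. Its difference between Large and Medium was -0.38 ± 0.28 (log2, SE; adjusted p = 0.989 by edgeR). Eif2ak3, the endoplasmic reticulum stress kinase PERK, had 26.38 and 22.21 CPM in the Small gate, 16.7 and 19.52 in the Medium gate, 23.73 and 16.83 in the Large gate, and 21.31 and 7.04 in All. Medium lay below Small in both libraries, by -0.42 ± 0.52 (log2, SE), and the spread of All was wider than any gap between gates.

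The eIF3 genes, whose products form the largest initiation factor and bridge the small subunit to eIF4G, were higher in Large than in Small throughout on the count scale. All 14 had a positive difference between Large and Small (0.04 to 0.80, median 0.38). All 14 were higher in Large within both numbers, as were 32.9% of all tested genes. For 8 both Large libraries were above both Small ones, an order that 17.7% of all genes had. Against Medium 11 of 14 were positive (median 0.20), and between Medium and Small 10 of 14 (median 0.13). None passed the adjusted test by edgeR. On the log2(TPM + 1) scale 11 of 14 were positive for Large against Small, with a median of 0.19. Leaving out Eif3j1 and Eif3j2, whose coding sequences are 99.2% identical, 12 of 12 remained positive for Large against Small with a median of 0.36.

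Eif3a, the largest subunit and the scaffold of the complex (chr19:60761117-60790658, minus strand), set itself apart. It had 111.4 and 100.6 CPM in the Small gate, 237.8 and 172.5 in the Medium gate, 236.1 and 134.2 in the Large gate, and 183.7 and 160.0 in All. Both Small libraries were below the other 6, and Medium was the highest gate in each number. Large exceeded Small by 0.80 ± 0.31 (log2, SE; unadjusted p = 0.0358 and adjusted p = 0.975 by edgeR), with 1.08 within number 1 and 0.41 within number 2, and by 0.34 ± 0.30 without Large 1. Medium exceeded Small by 0.95 ± 0.31 (log2, SE; unadjusted p = 0.0183 and adjusted p = 1 by edgeR). Large and Medium overlapped, at -0.15 ± 0.31 (log2, SE).

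Eif3j1, one of 2 genes for a loosely bound subunit, also had its lowest levels in Small among the gates, with Medium and Large overlapping: 11.22 and 10.28 CPM in the Small gate, 17.7 and 17.49 in the Medium gate, 18.08 and 16.57 in the Large gate, and 18.81 and 12.33 in All. Its difference between Large and Small was 0.69 ± 0.35 (log2, SE; adjusted p = 0.975 by edgeR). Counting it together with its near copy Eif3j2 lowered this to 0.52 ± 0.37, and the value between Medium and Small from 0.71 to 0.33. The 2 genes cannot be counted apart with certainty. Eif3g, an RNA-binding subunit and the most abundant eIF3 gene per length at a mean of 303.9 TPM, had 241.5 and 167.3 CPM in the Small gate, 231.9 and 198.8 in the Medium gate, and 293.1 and 242.1 in the Large gate. Large was above both other gates in CPM, narrowly so over Small, by 0.39 ± 0.25 (log2, SE). In TPM it overlapped Small, with Large 2 at 317.4 and Small 1 at 318.4. Eif3k, a small peripheral subunit at a mean of 276.6 TPM, had 138.3 and 106.0 CPM in the Small gate, 141.1 and 159.7 in the Medium gate, and 180.4 and 151.3 in the Large gate, so its Small libraries were lowest. The difference between Large and Small was 0.44 ± 0.21 (log2, SE; unadjusted p = 0.077 and adjusted p = 0.975 by edgeR).

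**Figure D3:**
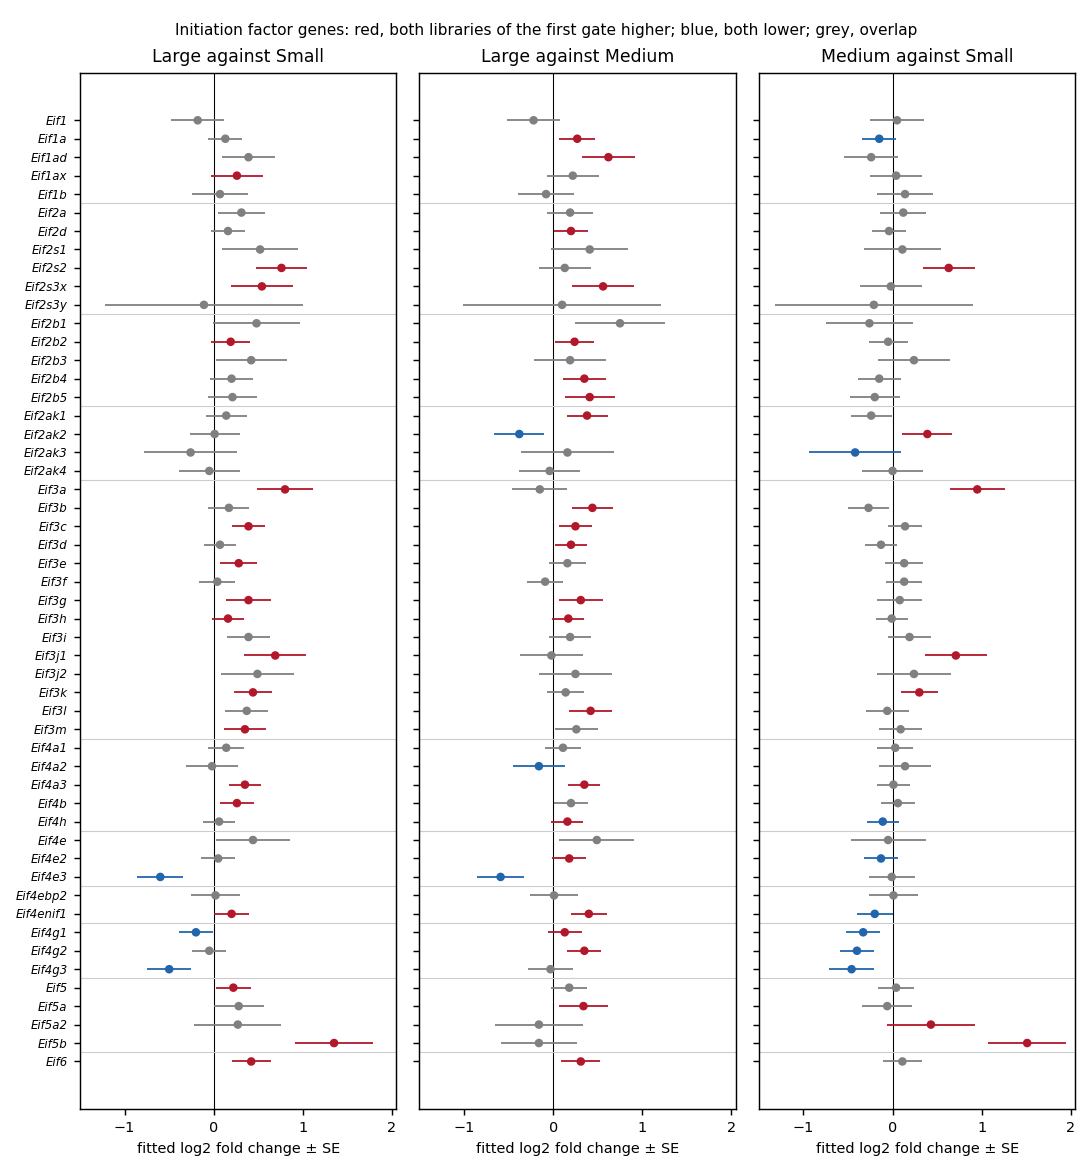
Points are fitted log2 fold changes with bars of 1 SE for the 52 tested genes in the 3 comparisons. On this count scale the 14 eIF3 and 5 eIF2B genes all lie right of 0 for Large against Small (11 and 4 on the log2(TPM + 1) scale), Eif5b lies farthest right at 1.35, and the 3 eIF4G genes lie left of 0 for Medium against Small.

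The cap-binding genes differed in direction. Eif4e, which encodes the main cap-binding protein and made up 63.0 to 80.6% of the TPM of the tested eIF4E genes in each library, had 395.4 and 247.9 CPM in the Small gate, 384.6 and 236.8 in the Medium gate, 523.0 and 348.2 in the Large gate, and 428.2 and 228.7 in All. All number 1 libraries were above all number 2 libraries. Within each number Large was the highest gate, by 0.40 and 0.49 over Small, and the fitted difference of 0.44 ± 0.42 (log2, SE; adjusted p = 0.975 by edgeR) was about its error. Eif4e2, a paralog that binds the cap weakly, had 115.8 and 107.9 CPM in Small and 127.2 and 104.9 in Large, which overlap.

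Eif4e3, the third cap-binding paralog (chr6:99625135-99666771, minus strand), ran the other way. It had 52.96 and 55.13 CPM in the Small gate, 46.71 and 60.97 in the Medium gate, 33.6 and 37.88 in the Large gate, and 48.13 and 66.36 in All. Both Large libraries were below the other 6. The log2 difference was -0.60 ± 0.26 against Small (SE, unadjusted p = 0.0534 and adjusted p = 0.975 by edgeR) and -0.59 ± 0.26 against Medium (SE, unadjusted p = 0.055 and adjusted p = 0.989 by edgeR). It was the lowest value of all 52 initiation factors in both comparisons, and it was negative within each number. The Eif4e and Eif4e3 proteins are 26.3% identical.

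The eIF4G scaffolds, which join the cap-binding protein to eIF3 and the poly(A)-binding protein, were lowest in Medium or near it. All 3 had both Medium libraries below both Small ones in CPM, an order that 14.3% of all tested genes had. In TPM Eif4g3 overlapped, at 14.82 in Medium 1 and 14.66 in Small 1. The median log2 difference was -0.40, and -0.41 on the log2(TPM + 1) scale. Eif4g2, whose product lacks the eIF4E site and which made up 82.3 to 87.0% of eIF4G TPM, had 1104.1 and 1212.9 CPM in the Small gate, 871.7 and 878.2 in the Medium gate, 1128.1 and 1102.5 in the Large gate, and 1062.9 and 1407.0 in All. Medium stood below the other 6 libraries, by -0.40 ± 0.19 against Small (log2, SE; unadjusted p = 0.0751 and adjusted p = 1 by edgeR), and Large exceeded it by 0.35 ± 0.19. Eif4g1, the main scaffold, had 267.5 and 238.4 CPM in the Small gate, 210.9 and 192.4 in the Medium gate, 228.1 and 213.6 in the Large gate, and 213.6 and 268.3 in All. In CPM the order was Medium below Large below Small. In TPM Large and Medium overlapped, with Large 1 at 67.11 and Medium 1 at 68.10. Eif4g3 had 52.9 and 71.91 CPM in the Small gate, 46.84 and 43.6 in the Medium gate, 42.25 and 46.3 in the Large gate, and 46.67 and 58.71 in All. Its difference between Large and Small was -0.50 ± 0.25 (log2, SE; unadjusted p = 0.0851 and adjusted p = 0.975 by edgeR), while Large and Medium overlapped.

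Among the binding partners of eIF4E, Eif4enif1, the nuclear import carrier of eIF4E, had 103.6 and 101.7 CPM in Large, above 86.35 and 92.04 in Small and 80.73 and 74.45 in Medium. The differences were 0.20 ± 0.20 and 0.40 ± 0.20 (log2, SE). On the log2(TPM + 1) scale the first was 0.01, with TPM of 49.5 and 50.68 in Large overlapping 48.42 and 51.1 in Small, and the second was 0.37. Eif4ebp2, a repressor that keeps eIF4E from eIF4G, had 41.88 and 40.63 CPM in Small and 48.25 and 35.51 in Large, a log2 difference of 0.02 ± 0.27 (SE) that changed sign on the log2(TPM + 1) scale.

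For the helicase eIF4A, which unwinds leader structure, the counts of one gene are split with a copy. Eif4a1 (chr11:69666936-69672423, minus strand) shares its 1218-base coding sequence with the processed pseudogene Eif4a-ps4 (chr1:60703932-60705149, plus strand), which differs from it by 1 base. The differing base is the capital letter in bases 474 to 593.
Eif4a1: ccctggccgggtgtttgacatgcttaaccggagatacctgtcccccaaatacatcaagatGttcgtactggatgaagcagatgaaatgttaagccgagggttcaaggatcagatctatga
Eif4a-ps4: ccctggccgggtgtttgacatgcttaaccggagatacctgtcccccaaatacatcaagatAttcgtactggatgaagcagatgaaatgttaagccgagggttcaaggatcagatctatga
By contrast the paralog Eif4a2, whose protein is 90.2% identical, differs at 30 of 120 bases in capitals over bases 301 to 420 of Eif4a1 and 307 to 426 of Eif4a2.
Eif4a1: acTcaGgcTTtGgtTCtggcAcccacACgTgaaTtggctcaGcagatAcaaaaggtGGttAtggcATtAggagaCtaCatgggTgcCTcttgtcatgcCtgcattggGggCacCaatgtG
Eif4a2: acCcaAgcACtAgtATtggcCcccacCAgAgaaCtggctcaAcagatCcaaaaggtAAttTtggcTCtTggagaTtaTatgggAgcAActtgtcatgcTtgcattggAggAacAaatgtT

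Eif4a-ps4 had 4912 to 8438 estimated counts per library, and it held 42.5% of the counts of Eif4a1 and its copies over the 8 libraries. Eif4a1 alone had 612.5 and 480.4 CPM in the Small gate, 550.7 and 564.8 in the Medium gate, 642.9 and 564.4 in the Large gate, and 579.2 and 506.4 in All, with differences of 0.14 ± 0.20 for Large against Small and 0.11 ± 0.20 for Large against Medium (log2, SE), the first of which changed sign on the log2(TPM + 1) scale. With the copies added it had 1083.3 and 831.4 CPM in the Small gate, 915.7 and 914.0 in the Medium gate, and 1246.6 and 1040.8 in the Large gate, so that both Large libraries then lay above both Medium libraries. The summed differences were 0.26 ± 0.22 and 0.32 ± 0.22 (log2, SE). Eif4a2 had 207.9 and 329.8 CPM in the Small gate, 290.5 and 300.8 in the Medium gate, 258.9 and 269.7 in the Large gate, and 291.1 and 439.4 in All. Number 2 was the higher library in each group, and Large was just below Medium, by -0.16 ± 0.29 (log2, SE). In TPM, Eif4a2 was 13.7 to 30.8% of Eif4a1, Eif4a-ps4 and Eif4a2 together.

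**Figure D4:**
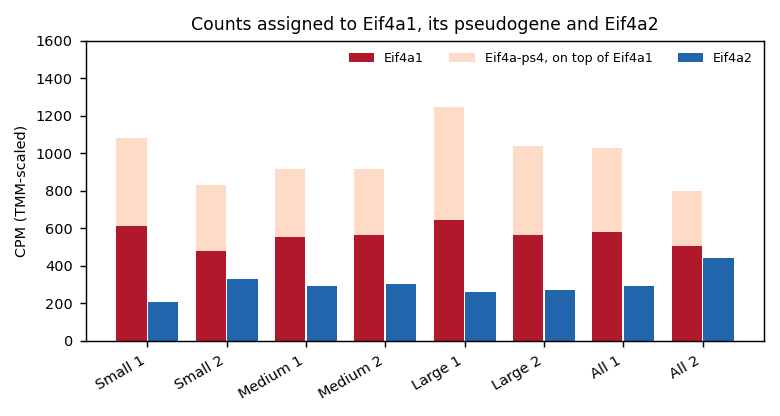
Bars give CPM per library, with Eif4a-ps4 stacked on Eif4a1 and Eif4a2 beside them. The summed bar is highest in Large 1, at 1246.6 CPM for Eif4a1 and all its copies, and Eif4a2 is highest in All 2 at 439.4 CPM.

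Eif4a3, a related helicase of the exon junction complex, had 314.0 and 273.6 CPM in the Small gate, 301.8 and 288.3 in the Medium gate, 400.8 and 350.2 in the Large gate, and 296.5 and 269.7 in All. Both Large libraries were above the other 6, by 0.35 ± 0.18 against Small and 0.35 ± 0.18 against Medium (log2, SE; unadjusted p = 0.0896 and 0.0942, adjusted p = 0.975 and 0.989 by edgeR). Eif4b, a cofactor of eIF4A, had 227.5 and 191.3 CPM in Large, above 173.2 and 176.4 in Small, at 0.26 ± 0.19 (log2, SE). In TPM these gates overlapped, with Large 2 at 69.49 and Small 2 at 73.97.

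Eif5b, the GTPase that joins the large subunit (chr1:37998010-38055579, plus strand), had the largest difference of any initiation factor. It had 12.97 and 9.43 CPM in the Small gate, 40.08 and 23.71 in the Medium gate, 38.03 and 18.94 in the Large gate, and 32.04 and 29.38 in All. Both Small libraries were below the other 6, and Medium was the highest of the 3 gates in both numbers. Large exceeded Small by 1.35 ± 0.44 (log2, SE; unadjusted p = 0.019 and adjusted p = 0.975 by edgeR), with 1.54 within number 1 and 1.00 within number 2, and by 0.76 ± 0.47 without Large 1. Medium exceeded Small by 1.51 ± 0.44 (log2, SE; unadjusted p = 0.0116 and adjusted p = 1 by edgeR), with 1.62 and 1.32 within numbers. On the log2(TPM + 1) scale these differences were 0.76 and 0.94, at a mean level of 5.31 TPM. Eif3a, Eif2s2, Eif3j1 and Eif3k, described above, share this order of low Small and overlapping Medium and Large. For Eif3k the gap was narrow, at 138.3 CPM in Small 1 and 141.1 in Medium 1.

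Eif5a, whose hypusine-bearing product also acts in elongation, was the most abundant initiation factor gene per length, at a mean of 2410.5 TPM. It had 2138.5 and 1358.3 CPM in the Small gate, 1723.0 and 1630.3 in the Medium gate, 2369.4 and 1883.8 in the Large gate, and 1696.3 and 1215.4 in All. Large was above Medium in both libraries and overlapped Small, by 0.34 ± 0.28 and 0.28 ± 0.28 (log2, SE). Its paralog Eif5a2, with 82.5% protein identity, was at a mean of 2.71 TPM, the lowest of the tested genes, and ran from 6.65 CPM in Large 1 to 16.15 in All 2, with Large overlapping both other gates. Eif5, the activator of eIF2's GTPase, had 276.8 and 333.5 CPM in the Small gate, 287.6 and 339.1 in the Medium gate, 333.6 and 375.8 in the Large gate, and 289.1 and 339.7 in All. It followed Small below Medium below Large in each number, at 0.22 ± 0.20 between Large and Small (log2, SE), although Large 1 at 333.6 CPM barely passed Small 2 at 333.5.

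Eif6, which keeps free large subunits from joining too early, had 162.3 and 121.2 CPM in the Small gate, 157.7 and 147.5 in the Medium gate, 206.9 and 172.4 in the Large gate, and 143.8 and 125.7 in All. Both Large libraries were above the other 6 in CPM. The difference was 0.42 ± 0.22 against Small (log2, SE; unadjusted p = 0.0973 and adjusted p = 0.975 by edgeR) and 0.31 ± 0.22 against Medium (log2, SE; adjusted p = 0.989 by edgeR). In TPM Large 2 at 236.1 was below Small 1 at 238.8 and Medium 1 at 241.3.

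Among the other lists of translation genes, the ribosomal proteins had medians that ordered the gates differently. Of 80 tested cytosolic ribosomal protein genes, 74 were higher in each Large library than in each Small one (92.5%, against 17.7% of all genes). The median log2 difference was 0.46. Likewise 74 were higher in each Medium library than in each Small one (92.5%, against 16.6%), with a median of 0.58. Against Medium, however, only 2 lay above in Large (2.5%, against 18.3%) and 31 below (38.8%, against 17.2%), with a median of -0.12. The median of the ribosomal protein genes was thus lowest in Small and close between Medium and Large; the difference between the lists was not tested. Among 13 elongation and termination factors, 6 were higher in each Large library than in each Small one (46.2%, against 17.7% of all genes). None was lower in this way, against 14.7% of all genes. For Large against Medium 4 were higher (30.8%, against 18.3%) and 1 was lower (7.69%, against 17.2%). The medians were 0.16 for Large against Small, 0.04 for Large against Medium and 0.01 for Medium against Small. Eef1b2, a nucleotide exchange subunit of elongation factor 1, is named here after its values were seen. It had 199.7 and 203.1 CPM in the Small gate, 317.1 and 310.9 in the Medium gate, and 325.5 and 281.2 in the Large gate. By contrast 3 of the 13 had a negative log2 difference between Large and Small: Eef2 (-0.13), Eef2k (-0.63) and Gspt2 (-1.14). Another list held 26 partners of initiation (poly(A)-binding proteins, eIF4E kinases, reinitiation factors and others). Both Large libraries were above both Small ones for 4 of them (15.4%, against 17.7% of all genes). Both were below for 2 (7.69%, against 14.7%). The median was 0.11, and neither share exceeded that of all genes. The 2 lower ones, named after their values were seen, were Mknk1 and Mknk2, the kinases that phosphorylate eIF4E, at -0.43 and -0.55 (log2). In each of these lists, 0 genes passed the adjusted test by edgeR in the 3 comparisons.

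**Figure D5:**
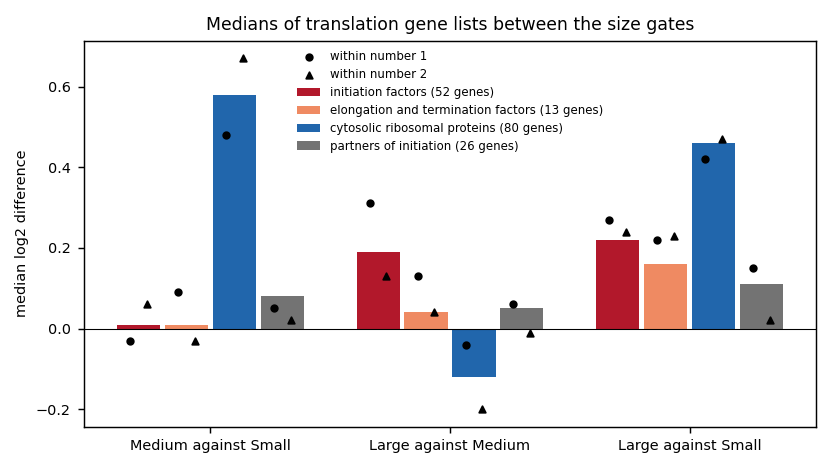
Bars give the median fitted log2 difference of each gene list in the 3 comparisons, with the circle and the triangle showing the medians within number 1 and number 2. The initiation factors stand at 0.01, 0.19 and 0.22 and the ribosomal proteins at 0.58, -0.12 and 0.46, from left to right.

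What the members share beyond their names was looked for in length, base composition and promoter sequence. The 52 genes share the same libraries and are not independent. Across them, the Spearman correlation of the difference between Large and Small was -0.12 with transcript length and -0.16 with GC content. Over all genes these correlations were -0.18 and -0.20. For Large against Medium they were -0.14 and 0.20, against -0.04 and -0.00 over all genes. For Medium against Small they were -0.12 and -0.33, against -0.17 and -0.20. The E-box CACGTG, the letters bound by MYC and related factors, was searched in RefSeq promoter windows of GRCm38.p6. These run from 250 bases before to 50 after an annotated start, and some genes have several (56 windows over 43 initiation factor genes). The motif reads the same on both strands, and no other motif was searched. Of 43 initiation factor genes with a window, 10 (23.3%) held it, against 8.09% of the 27025 genes with a window, and 11 had no window. The 27025 were not limited to genes tested here. Initiation factor genes with the motif had a median log2 difference between Large and Small of 0.21 (10 genes). Those without it also had 0.21 (33 genes). Between Large and Medium the medians were 0.12 with the motif and 0.20 without it. A match is a description of letters, not of a bound site. Printed 5′ to 3′ on the gene's strand with the motif in capitals, 66-base stretches outside annotated exons show its setting in the genes for eIF3k (chr7:28981897-28981962), eIF4A1 (chr11:69672577-69672642), eIF4G1 (chr16:20672643-20672708) and eIF5A (chr11:69921425-69921490).
Eif3k: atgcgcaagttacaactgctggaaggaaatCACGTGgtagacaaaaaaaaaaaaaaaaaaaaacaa
Eif4a1: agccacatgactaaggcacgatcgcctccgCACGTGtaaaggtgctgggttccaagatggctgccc
Eif4g1: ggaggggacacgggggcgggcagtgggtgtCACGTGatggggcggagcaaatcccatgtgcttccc
Eif5a: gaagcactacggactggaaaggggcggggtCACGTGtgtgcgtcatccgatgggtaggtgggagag
The Eif4g1 and Eif5a stretches lie inside the GENCODE bounds of those genes, whose outermost starts are chr16:20668313 and chr11:69921958. Their windows thus precede a start within the gene. These 4 genes did not share a direction between Large and Small, with log2 differences of 0.44 ± 0.21 for Eif3k, 0.14 ± 0.20 for Eif4a1 (negative on the log2(TPM + 1) scale), -0.20 ± 0.19 for Eif4g1 and 0.28 ± 0.28 for Eif5a (SE).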

How the data were processed

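Bulk RNA-seq of 8 size-sorted HSC libraries was used. The authors deposited estimated counts per gene and log2(TPM + 1) values; per the submitters' processing notes the tools were STAR 2.5.3a, RSEM 1.3.0 and SAMtools 1.3 with mm10, and the annotation release and use of strand are not given in the sources used here. RSEM divides reads between near-identical genes by estimation. Counts were rounded, TPM recovered from the log2 values, and 50462 of 50686 IDs matched GENCODE M21. Counts were tested with edgeR 4.0.16 in R 4.3.3 (quasi-likelihood, TMM scaling, robust, minimum count 10, group as the only term, 8 libraries, 4 residual degrees of freedom, two-sided), with Benjamini-Hochberg adjustment over 16066 genes at 0.05. CPM are TMM-scaled. Differences within a number are log2 CPM with prior count 2. The script was tested on simulated data. Near copies had at least 95% identity over 80% of a coding sequence. DESeq2 1.42.0 and limma 3.58.1 were alternatives. Named were, per factor, the 2 most abundant genes, the 2 with the largest difference between Large and Small, and fixed paralog sets; others are given by count. One HSC marker gene is not reported here and was left out of the marker sums. The members and lists were chosen with earlier results of these data known.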

Additional observations from a re-analysis of the deposited data

Results flagged for a closer look

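Eif4ebp3, an eIF4E-binding protein gene too low to be tested, had 2.93 CPM in All 2, a library outside the gate comparisons, while it was at 0 in 6 libraries and at 0.329 CPM in Large 2. Eif4a-ps4, a pseudogene outside the set of initiation factor genes, reached 603.2 CPM in Large 1 and was at or above 292.5 CPM in every library.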

How the results depend on the processing

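The alternatives were DESeq2, its size factors in edgeR, limma-voom, limma-trend on log2(TPM + 1), no filter, a filter of 10 CPM in 2 libraries, a fit of only the 4 libraries compared, a replicate block, leaving out each library, and, chosen after seeing the data, near copies added to the parent gene. Under each of these, 0 initiation factors passed an adjusted p of 0.05 in each of the 3 comparisons. On log2(TPM + 1), 11 genes were higher in both libraries for Large against Small, with a median of 0.05, and 12 for Large against Medium. Leaving out one library gave 16 to 37 genes and medians of 0.11 to 0.37 for Large against Small, 19 to 40 and 0.09 to 0.37 for Large against Medium, and 7 to 23 and -0.08 to 0.08 for Medium against Small. Where 1 library is left in a gate, it is assumed to vary like the other groups.

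With a replicate block the medians were 0.21, 0.19 and 0.02, and 0 genes were called, with the smallest adjusted p at 0.083 by edgeR. At an unadjusted p under 0.05 the block counted 20, 14 and 6 initiation factors (38.5, 26.9 and 11.5%), against 17.4, 14.8 and 12.5% of all genes. The labels do not say what the numbers mean. Same-numbered deviations correlated at 0.36 to 0.44 between groups, and the first principal component (39.5% of variance) separated the numbers. Over the 37 named genes and 17 alternatives, 35, 25 and 45 of 629 values per comparison changed sign, for genes whose own difference was at most 0.28, 0.22 and 0.26.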
